A study of Mus musculus with 2 samples.

Results

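Methylated regions were examined at 5 genes whose products mark macrophages and other leukocytes: Itgax, Adgre1, Csf1r, Ptprc and Spi1. The members were the MeDIP-seq peaks that overlapped, by at least 1 bp, a window of mm9 holding each gene with about 10 kb on either side. They were 33 of the 166432 nuclear peaks in the library from mice on regular chow (STD) and 27 of the 175767 in that from mice fed a high-fat diet (HFD). Both libraries were made from epididymal white adipose tissue (the abdominal fat pad attached to the epididymis) and the animals were males of the common inbred strain C57BL/6J. The mice entered the study at 4 weeks of age and received regular chow, or a diet in which fat supplied 60% of the energy, over 5 months. MeDIP-seq captures DNA fragments that carry 5-methylcytosine with an antibody and sequences them, and the lists used here give the position of each enriched stretch (a peak) and no height or score. There was 1 library per diet, and the number of animals behind it is not stated. Differences below are therefore differences between 2 libraries, without replicates and without p-values. The values in brackets are exact 95% intervals, which reflect counting error alone and take each peak as an independent event. Sequencing depth is unknown, so a missing peak is not a missing methylation mark.

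Epididymal fat is a mixture of adipocytes, vascular cells, fibroblasts and leukocytes, and macrophages are known to accumulate in it in obese mice. Genes that are active in 1 cell type often carry less methylation at their regulatory stretches in that cell type than in others. The question put to the lists was whether peaks at loci that are active in macrophages differed between the diets in a way that more leukocyte DNA in the tissue would give. The pattern above concerns regulatory stretches, and which peaks lie in such a stretch was not known here. Inside the genes lay 18 of 33 STD and 13 of 27 HFD peaks, so the pattern sets no direction for the members as a whole. In whole tissue, a change in the share of a cell type and a change of methylation within a cell type cannot be told apart. The lists hold no RNA and no cell counts, so the tissue label could not be checked against marker genes, and the leukocyte content of the samples was not measured here.

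MeDIP recovers DNA according to how many methylated CpG dinucleotides a fragment holds, so the CpG content of the promoters is shown first. The RefSeq promoter table (GRCm38.p6) gave sequences for Itgax and Ptprc. The 250 bases before the annotated start are printed 5′ to 3′ on the strand of the gene (plus for Itgax, minus for Ptprc), with each CpG in capitals.
Itgax: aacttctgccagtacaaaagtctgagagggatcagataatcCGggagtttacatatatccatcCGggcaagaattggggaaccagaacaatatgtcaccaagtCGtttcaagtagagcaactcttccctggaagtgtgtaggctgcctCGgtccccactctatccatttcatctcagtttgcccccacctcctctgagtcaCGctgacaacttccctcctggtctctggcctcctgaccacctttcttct
Ptprc: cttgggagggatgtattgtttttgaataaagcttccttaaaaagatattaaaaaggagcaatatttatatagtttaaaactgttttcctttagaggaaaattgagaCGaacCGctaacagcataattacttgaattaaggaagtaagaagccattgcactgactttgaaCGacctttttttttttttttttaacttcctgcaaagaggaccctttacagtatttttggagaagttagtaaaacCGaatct
The Itgax promoter held 5 CpGs in 250 bases and the Ptprc promoter 4. Of 27025 promoters of this length, 1 per gene, 50.5% held more CpGs than that of Itgax and 55.5% more than that of Ptprc. Both were close to the median of 6. In lists of marker genes, the promoters of 9 of 12 macrophage markers, Itgax among them, could be matched and held a median of 4 CpGs (range 1 to 7). The 3 of 3 pan-leukocyte genes (Ptprc, Laptm5 and Coro1a) held a median of 5 (4 to 13). The 3 matched of 4 myeloid transcription factor genes held a median of 22 (2 to 29), and 3 of 4 adipocyte markers a median of 1 (0 to 16). These counts describe the sequence and not its methylation, and the promoters were not placed on mm9.

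Over the 5 windows, which span 420 kb, the HFD library had fewer peaks than the STD library, in contrast to the rest of its list. The numbers were 27 for HFD and 33 for STD, giving a ratio of 0.818 (0.473 to 1.40), whereas the ratio over all nuclear chromosomes was 1.06. In the 0.5 Mb on each side of the windows (1 Mb per gene, 5 Mb in all) the numbers were 515 and 488, with a ratio of 1.06 (0.931 to 1.20). The ratio at the genes relative to their surroundings was 0.775 (0.441 to 1.35), so the lower number at the genes was not separable from equality by counting error. These intervals take the 2 lists as separate counts, although 22 regions at the genes were in both. They therefore do not measure the paired difference, which rests on the 16 peaks found with 1 diet only, described below. Without Ptprc the ratio at the other loci was 0.900.

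Most peaks at these genes were nevertheless found with both diets. A peak was said to have a partner when a peak of the other list overlapped it by at least 1 bp. Of the STD peaks 22 of 33 had a partner (66.7%, 48.2 to 82.0), and of the HFD peaks 22 of 27 (81.5%, 61.9 to 93.7). The 11 STD peaks without a partner made up 33.3% of the STD members, beside 26.5% of all STD peaks and 24.8% of those in the surroundings. The 5 HFD peaks without a partner made up 18.5% of the HFD members, beside 30.3% of all HFD peaks and 28.3% in the surroundings. Both background shares lay inside the intervals of the members. Of the 16 peaks found with 1 diet only, 5 were HFD peaks (31.3%, 11.0 to 58.7), whereas HFD peaks made up 54.7% of such peaks in the genome and 54.7% in the surroundings.

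**Figure D1:**
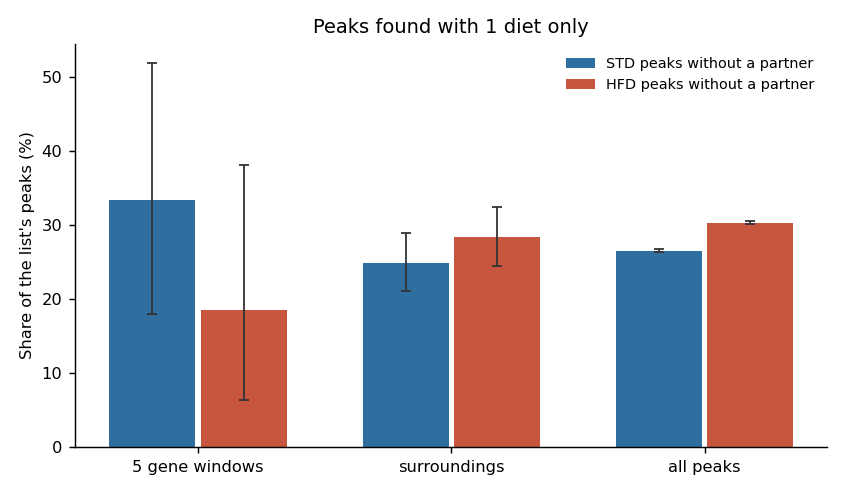
Share of each list's peaks that had no partner in the other list (y axis, percent), for the 5 gene windows, their surroundings and all nuclear peaks. Blue bars are STD and red bars HFD, 1 library each, and the lines are exact 95% binomial intervals. The STD bar is the taller at the genes (33.3% against 18.5%) and the shorter over all peaks (26.5% against 30.3%), with wide intervals at the genes.

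The 11 STD-only peaks were spread over 4 genes, with 4 at Csf1r, 3 at Ptprc, 3 at Spi1, 1 at Itgax and 0 at Adgre1. The 5 HFD-only peaks also fell at 4 genes, with 2 at Csf1r, 1 at Itgax, 1 at Adgre1 and 1 at Spi1. Within the genes themselves, without the outer 10 kb, there were 18 STD peaks, 8 of them STD-only, and 13 HFD peaks, 3 of them HFD-only. The upstream flanks held 7 STD and 5 HFD peaks, of which 3 and 1 were found with 1 diet only. The downstream flanks held 8 and 9, of which 0 and 1 were.

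**Figure D2:**
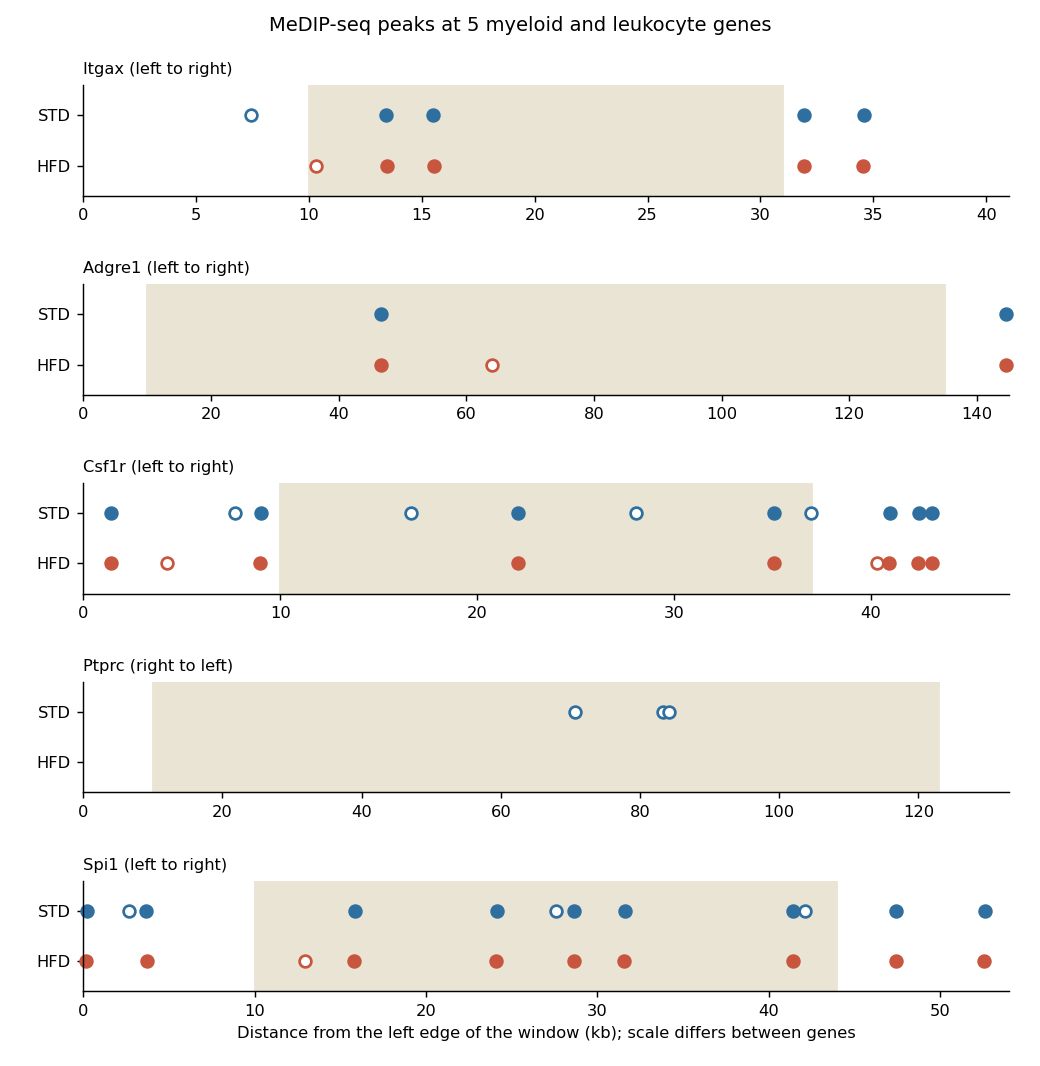
Peaks in each gene window by distance from its left edge (x axis, kb, scaled separately per gene), with the STD library above and the HFD library below. Points mark peak centres, filled where the peak has a partner in the other list and open where it has none, the shaded band is the window without its outer 10 kb, and the words beside each name give the direction of transcription. Open points are most numerous in the STD rows of Csf1r, Ptprc and Spi1, and the HFD row of Ptprc is empty.

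Peak density differed more between the genes than between the diets. The windows of Spi1 and Csf1r were densely covered, with 222 and 234 STD peaks per Mb and 185 and 191 HFD peaks per Mb. At Csf1r the HFD value came mostly from the flanks, with 3 peaks upstream, 2 in the gene and 4 downstream. The STD numbers there were 3, 5 and 3. At Spi1 the gene itself held 7 STD and 6 HFD peaks. Itgax had 122 peaks per Mb in both lists, and Adgre1 had 13.8 STD and 20.7 HFD peaks per Mb. Ptprc had 22.6 STD peaks per Mb and 0 HFD peaks. Relative to their own surroundings, Spi1 stood at 2.36 times with STD (1.18 to 4.33) and 1.78 times with HFD (0.829 to 3.41). Csf1r stood at 1.72 times (0.839 to 3.18) and 1.28 times (0.573 to 2.49), and Itgax at 0.897 times (0.287 to 2.14) and 0.917 times (0.293 to 2.19). Adgre1 stood at 0.192 times (0.0228 to 0.718) and 0.280 times (0.0564 to 0.850). Ptprc stood at 0.451 times with STD (0.0900 to 1.40) and at 0 with HFD, with an upper limit of 0.532. The pooled density of the 5 windows was 0.805 times that of the surroundings with STD (0.548 to 1.15) and 0.624 times with HFD (0.407 to 0.919). Both moved with the long, peak-poor windows. The STD value was 1.08 without Adgre1 and 0.955 without Ptprc, and the HFD value 0.792 and 0.816. Without the outer 10 kb of each window the STD value was 0.575 and the HFD value 0.393. Both pooled values mix 2 peak-dense and 2 peak-poor loci. They also weigh the windows by length, with 145 kb of Adgre1 and 133 kb of Ptprc among 420 kb, but the surroundings equally. The surroundings of Adgre1 and Ptprc held 72 and 50 STD peaks per Mb, fewer than the 94 to 136 at the other genes. These unequal weights lower both pooled values, so the HFD interval below 1 does not show fewer peaks at the genes than around them.

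**Figure D3:**
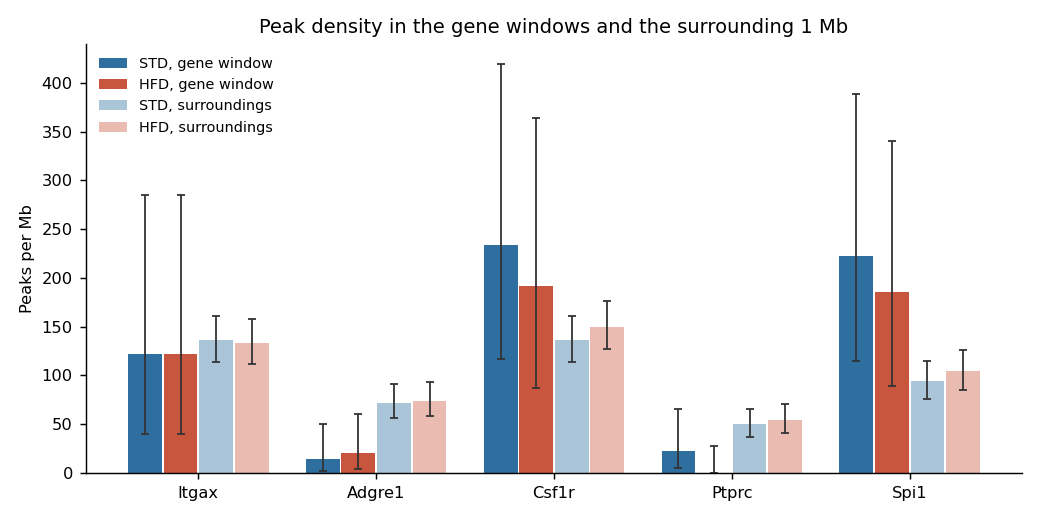
Peaks per Mb (y axis) in each gene window (dark bars) and in the 0.5 Mb on either side of it (light bars), for the STD library in blue and the HFD library in red, with exact 95% Poisson intervals. Csf1r and Spi1 reach at least 185 peaks per Mb in both libraries, Adgre1 and Ptprc stay below 25, and Ptprc has no HFD bar.

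Spi1 encodes PU.1, the transcription factor that directs myeloid differentiation and binds at many macrophage genes. Its window (chromosome 2, 90912 to 90966 kb, 54 kb) held 12 STD and 10 HFD peaks. Of 44688 windows of this length laid end to end on the 19 autosomes, 98.2% held fewer than 12 STD peaks and 92.9% fewer than 10 HFD peaks. A difference of at least 2 peaks in favour of STD occurred in 9.45% of those windows. The 9 shared regions matched closely in extent, with HFD minus STD widths from -61 to 44 bp and a median of -20 bp. The widest was the STD peak chr2:90964414-90964850 (437 bp) in the downstream flank, which reaches the neighbouring gene Mybpc3 in RefSeq (GRCm38.p6), and its HFD partner was 421 bp wide. The STD-only peaks were chr2:90914527-90914797 (271 bp) in the upstream flank, chr2:90939402-90939730 (329 bp) and chr2:90953937-90954331 (395 bp). They lay 745, 756 and 365 bp from the nearest HFD peak. The HFD-only peak was chr2:90924681-90925153 (473 bp), the HFD peak nearest the start of the gene, 2.68 kb downstream of it. The nearest STD peak to that start, chr2:90927637-90928036, was shared and lay 5.64 kb downstream. Distances from a gene start are approximate, as they take the start to be 10 kb inside the window. Whether a peak lay in an exon or an intron was not analysed here, as no mm9 annotation was used.

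Csf1r encodes the receptor for colony-stimulating factor 1, on which macrophages depend for survival and growth. Its window (chromosome 18, 61255 to 61302 kb, 47 kb) held 11 STD and 9 HFD peaks, 7 of each shared. Of 51346 autosomal windows of this length, 98.6% held fewer STD peaks and 93.2% fewer HFD peaks, and 8.31% showed at least 2 more STD than HFD peaks. The surroundings went the other way, with 136 STD and 150 HFD peaks. Inside the gene, 5 STD peaks stood against 2 HFD peaks. The 4 STD-only peaks of the window were all at or near the narrowest width found in the STD list, 263 bp. Of these, 3 were exactly that wide, namely chr18:61262560-61262822 before the gene and chr18:61271515-61271777 and chr18:61282919-61283181 inside it. The fourth, chr18:61291821-61292093 at the downstream edge of the gene, was 273 bp wide. The 2 HFD-only peaks, chr18:61259115-61259369 (255 bp, the narrowest HFD width) and chr18:61295178-61295469 (292 bp), lay in the flanks, the latter 211 bp from an STD peak.

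The shared Csf1r regions varied most in width. HFD peaks were wider in 5 of 7 pairs, by a median of 61 bp over all 7, with a range from -202 to 282 bp. The pair nearest the start of the gene, less than 1 kb upstream of it, was 439 bp wide with STD (chr18:61263791-61264229) and 574 bp with HFD (chr18:61263687-61264260). In the downstream flank, which reaches the neighbouring gene Hmgxb3 in RefSeq (GRCm38.p6), 1 region was 573 bp with STD and 371 bp with HFD, and another 282 bp and 564 bp. Without replicates no spread is available for these widths.

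Itgax encodes CD11c, an integrin subunit of dendritic cells that is also found on macrophages of obese fat. It lies between 2 other leukocyte integrin genes, Itgam and Itgad. Its window (chromosome 7, 135263 to 135304 kb, 41 kb) held 5 peaks in each library, 4 of them shared, and 42.3% of 58862 autosomal windows of this length had equal numbers. The remaining peak differed in place. The STD-only peak chr7:135270157-135270693 was 537 bp wide and lay 2.31 kb upstream of the assumed gene start, and the HFD-only peak chr7:135273193-135273447 was 255 bp wide and lay 0.192 kb downstream of it. They were 2.499 kb apart. The HFD-only peak had the narrowest width in its list, whereas the STD-only peak was 274 bp above the narrowest in the STD list. The widest region of all 5 genes, chr7:135297146-135298032 in the downstream flank, was shared and measured 887 bp with STD and 831 bp with HFD.

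Adgre1 encodes F4/80, an adhesion receptor that is a standard surface marker of mouse macrophages. Its window (chromosome 17, 57488 to 57633 kb, 145 kb) was nearly empty in both libraries, with 2 STD and 3 HFD peaks. Autosomal windows of this length held a median of 8 STD and 9 HFD peaks. Of 16638 such windows, 17.87% held 2 or fewer STD peaks and 24.35% held 3 or fewer HFD peaks. At least 1 more HFD than STD peak was found in 47.8% of them. Both STD peaks were shared. One, chr17:57534541-57534865 inside the gene, was 325 bp wide against 317 bp with HFD. The other, chr17:57632386-57632648 near the downstream edge of the window, was 263 bp wide against 351 bp. The HFD-only peak, chr17:57551837-57552157 (321 bp), lay inside the gene, 16.97 kb from the nearest STD peak. No peak of the window lay in the upstream flank, and the nearest peaks to the gene start were a shared pair 16.2 kb upstream of it.

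Ptprc encodes CD45, the tyrosine phosphatase on the surface of nearly all leukocytes. Its window (chromosome 1, 139949 to 140082 kb, 133 kb) was the only one of the 5 with peaks in 1 library alone, with 3 STD peaks and 0 HFD peaks. The STD peaks lay in the interior of the gene, at chr1:140019590-140019874 (285 bp), chr1:140032135-140032448 (314 bp) and chr1:140032902-140033453 (552 bp). The nearest HFD peaks were 73.96, 86.51 and 87.28 kb away respectively. Of the other 13 single-diet members, the one farthest from the other list was the Adgre1 peak at 16.97 kb. A count of 0 allows up to 3 peaks as a one-sided limit, or 22.6 per Mb, and the upper end of the exact 95% Poisson interval was 27.7 per Mb. The STD density of 22.6 per Mb equals the first limit by construction, as both are 3 peaks in the same window. The exact interval of the HFD over STD ratio, 0 to 2.42, included equality, so the difference was not separable from it by counting error. In the surroundings of Ptprc there were 50 STD and 54 HFD peaks, of which 35 each had a partner.

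The stretch without an HFD peak ran beyond the window, from 139945627 to 140124063 on chromosome 1, over 178 kb. It held 4 STD peaks, the fourth at chr1:140108315-140108648 (334 bp), 36.3 kb upstream of the gene start. Of 174635 gaps between neighbouring HFD peaks on the autosomes, 581 (0.333%) were at least as long, and 39 of these 581 (6.71%) held 4 or more STD peaks. In the reverse direction, 635 of 165307 gaps between STD peaks (0.384%) were as long, and 58 of them (9.13%) held 4 or more HFD peaks. Among 18136 autosomal windows as long as that of Ptprc, 21 (0.116%) held 3 or more STD peaks and 0 HFD peaks, and 33 (0.182%) held 3 or more HFD peaks and 0 STD peaks. Windows with 0 HFD peaks, whatever the STD number, made up 4.47%. At least 3 more STD than HFD peaks, whatever the numbers, were found in 7.76% of them. These shares are a description of the lists, and this gene was singled out after its values were seen.

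**Figure D4:**
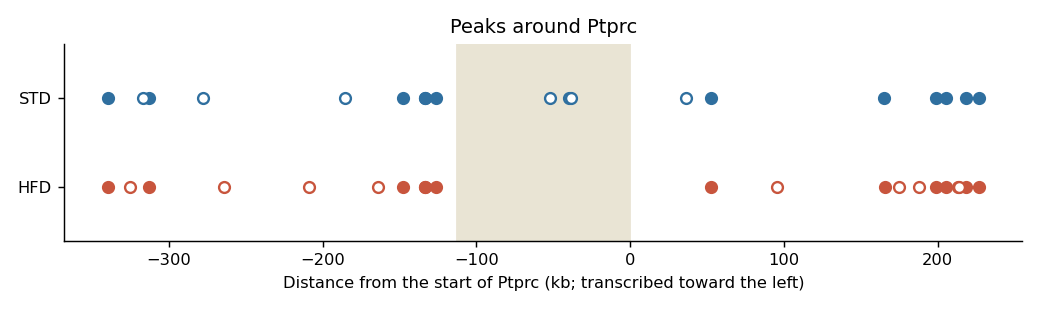
Peaks in the STD library (upper row) and the HFD library (lower row) around Ptprc by distance from the start of the gene (x axis, kb, negative values toward the end of the gene), filled where the peak has a partner in the other list and open where it has none. The shaded band is the gene. The HFD row is empty for 178 kb, in which 4 STD-only peaks lie, and shared peaks bound the stretch on both sides.

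The 22 regions found with both diets were much like shared regions elsewhere. All were 1-to-1 pairs, with midpoints a median of 25.3 bp apart, against 24 bp over 120322 such pairs in the genome. The HFD peak was the wider in 10 pairs and the narrower in 12, and the median difference was -12 bp with quartiles of -48.8 and 43.3 bp. Over all pairs the median was -8 bp with quartiles of -49 and 32 bp. By gene, HFD peaks were wider in 3 of 9 pairs at Spi1, 1 of 4 at Itgax, 1 of 2 at Adgre1 and 5 of 7 at Csf1r.

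Peaks without a partner were narrower than shared ones, as in the whole lists. The STD-only members had a median width of 285 bp (263 to 552) and the shared STD members 355.5 bp (263 to 887). Over all STD peaks the medians were 290 and 354 bp. The HFD-only members had a median of 292 bp (255 to 473) and the shared HFD members 375.5 bp (256 to 831), against 281 and 345 bp over all HFD peaks. Within 20 bp of the narrowest width of their list lay 5 of 11 STD-only and 2 of 5 HFD-only members, and 43.4% and 43.5% of all peaks without a partner. The STD-only peaks over 500 bp wide were those at Itgax (537 bp) and Ptprc (552 bp).

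**Figure D5:**
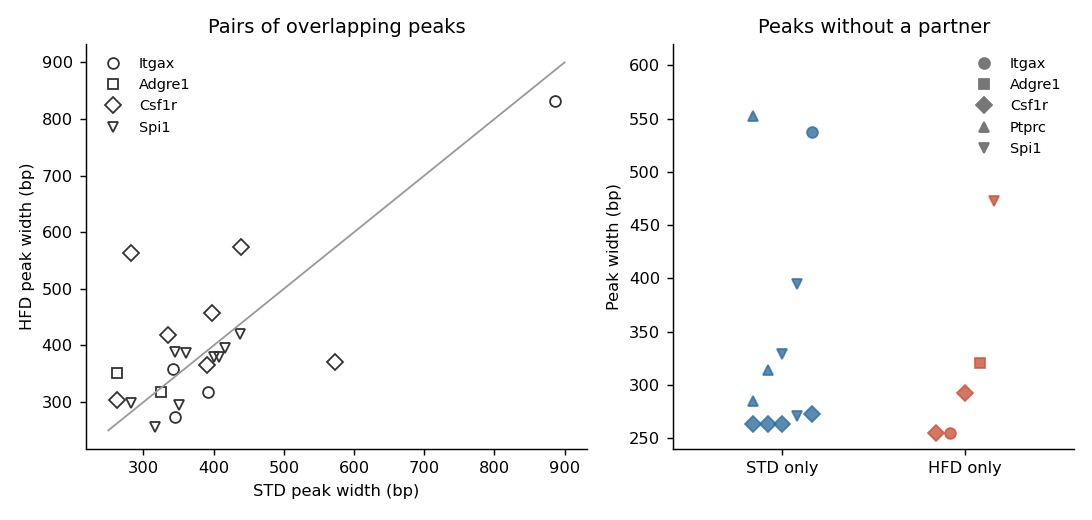
Left, width of the HFD peak (y axis, bp) against that of its STD partner (x axis, bp) for the 22 shared regions, with the line of equal width and a symbol per gene. Right, widths (y axis, bp) of the 11 STD-only peaks in blue and the 5 HFD-only peaks in red, where the Csf1r STD-only peaks lie at 263 to 273 bp and the widest are at Itgax and Ptprc.

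The coverage in bases gave the same order as the number of peaks. STD peaks covered 12295 bp of the 5 windows (2.93%) and HFD peaks 10299 bp (2.45%), of which 7674 bp were common to both. The common share of the bases in either list (Jaccard index) was 0.514, beside 0.521 in the surroundings and 0.503 over all nuclear chromosomes. By gene it was 0.636 at Itgax, 0.575 at Spi1, 0.528 at Adgre1, 0.501 at Csf1r and 0 at Ptprc. Coverage with STD and HFD was 1151 and 0 bp at Ptprc, the largest difference of the 5 genes. It was also lower with HFD at Itgax (2503 and 2036 bp) and Spi1 (4311 and 3673 bp). Coverage was nearly equal at Csf1r (3742 and 3601 bp) and higher with HFD at Adgre1 (588 and 989 bp). The part that leukocyte content or sequencing depth may have in these differences was not tested.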

How the data were processed

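For each library the authors deposited a BED file of peaks, whose 4 columns hold the chromosome, both ends of the peak in bp and a name. These positions are the values used here. The aligner BWA and the build mm9 are named per the submitters' processing notes. How peaks were called, with what threshold and input control, and whether mice were pooled is not given in the sources used here. Depth is likewise unknown, and it affects how many weak sites are called.

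Groups follow the diet in the labels. The 5 windows, the marker lists and the comparisons were chosen with earlier results of these data known. Positions are printed counting from 1. Peaks were assigned to a window, and to a partner in the other list, by 1 bp of overlap with Python 3.11.15, numpy 2.4.6 and pandas 2.3.3, and bedtools 2.31.1 returned identical numbers with a partner. Surroundings were the 0.5 Mb on each side of a window. Windows as long as each locus were laid end to end on the 19 autosomes from the first peak on. Exact binomial, conditional and Poisson intervals at 95% came from scipy 1.17.1, and figures from matplotlib 3.10.9. The overlap rules were tested on simulated lists. Every peak found with 1 diet only, the widest shared peak of each window and the peaks nearest the gene start are named, by rule. Strands of Adgre1, Csf1r and Spi1 were taken as plus from general knowledge, and the others from RefSeq. RefSeq tables follow a later build and served for promoter sequences, strands and neighbouring gene names, with no coordinates taken from them, so other marker genes were not placed on mm9. The lymphocyte marker list is not reported here. Samples could not be tested against each other, as each diet has 1 library. Alternatives covered the overlap rule, peak width, window and surroundings, each locus left out, covered bases and merged peaks.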

Additional observations from a re-analysis of the deposited data

How the results depend on the processing

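The alternatives reused the same peaks, and the stricter overlap rules returned the reported shares unchanged. Staying inside the wide counting intervals was therefore no independent check. Of 86 recomputed values, 85 stayed inside the counting interval of the value reported. The exception was the HFD peak density of the loci relative to the surroundings, 0.624, which was 0.393 when the outer 10 kb of each window were left out, which keeps 13 of the 27 HFD peaks. Leaving these out also gives the long windows of Adgre1 and Ptprc more weight, while the surroundings stay equal per gene. How much of the move comes from these weights was not tested. The matching STD density, 0.805, ranged from 0.575 to 1.08 over its alternatives, and the HFD density from 0.393 to 0.816. The HFD over STD ratio at the loci, 0.818, ranged from 0.722 (genes without flanks) to 0.900 (without Ptprc) over all alternatives and stayed below 1. Relative to the surroundings it ranged from 0.683 to 0.855. The share of peaks with a partner ranged from 55.6% to 73.3% (STD) and from 75.0% to 85.2% (HFD), and HFD peaks made up from 26.7% to 38.5% of the peaks without a partner. Apart from those of the STD and HFD densities, these ranges are narrower than the counting intervals, which come from 33 and 27 peaks. The density ranges are nearly as wide as their intervals, 0.548 to 1.15 for STD and 0.407 to 0.919 for HFD. No paired analysis was possible because the diets share no replicate numbers beyond a single library each, and for the same reason leaving out a replicate could not be tried.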
